A study of Mus musculus with 38 samples.

Results

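Aminoacyl-tRNA synthetases join each amino acid to its transfer RNA, the step through which the ribosome reads the genetic code. All of them are encoded in the nucleus, and one set works in the cytosol while another is imported into mitochondria to serve the organelle's own ribosomes. The 36 genes of the RNA-seq table that carry the symbol of such an enzyme were taken out of 21705. By symbol, 20 are cytosolic and 16, with names ending in 2, are mitochondrial. Some genes cross this line. Kars (lysine) and Gars (glycine) each make the enzyme of both compartments, Eprs charges both glutamate and proline, and Qars (glutamine) has no mitochondrial counterpart, because mitochondria make glutaminyl-tRNA with an amidotransferase.

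The 38 libraries came from mouse kidneys, kidney tumours and tumour cell lines in 10 groups. In MYC mice the Ksp promoter, active in kidney epithelium, drives rtTA, which with doxycycline (Dox) switches on a Tet-O-MYC transgene (3 tumour libraries from 2 animals). VM mice in addition lost Vhl through a tamoxifen-inducible Cre under the same promoter (3 tumours), and VIM mice also carry a germline deletion of Ink4a/Arf (3 tumours). Normal kidney was labelled wild type and vehicle treated (5 libraries, 2 titled B6 and 3 titled KT). The cells were the lines MYC-2983, VM-3055 and VIM-3039, each with 4 libraries kept on Dox and 4 from which Dox had been withdrawn, collected 24 h after plating. There is 1 line per genotype, so line and genotype cannot be told apart, and the numbers of the VM and VIM lines are those the study uses. Nothing says whether the libraries of a line came from separate cultures, so p-values among cells measure the spread between these libraries, which may be technical.

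Estimated depth ran from 8.22 to 36.6 M reads per library, and the variance between replicates exceeded counting noise by 1.33 to 3.18 times in cells and by 13 to 35.3 times in tissue. Vhl lay between 8.3 and 38.8 units in the cells of the VM-3055 and VIM-3039 lines against 433 to 543 in those of MYC-2983, and Cdkn2a between 24.9 and 40.8 in VIM-3039 against 3056 to 5701 in the other lines. In tissue Vhl lay between 40.2 and 79.9 units in VM tumours, 219 and 312 in VIM tumours, 468 and 560 in MYC tumours and 612 and 772 in normal kidney, so that VIM tumours kept more of it than VM tumours. Cdkn2a lay between 30.1 and 95.5 in VIM, 3392 and 4347 in VM and 59.3 and 2872 in MYC tumours. The row for Myc was lower with Dox in each line (676 against 1831 units in MYC-2983), and transgene reads cannot be separated from those of the mouse gene in it, so it is no check of the Dox labels. A unit is the deposited value, which the authors scaled to an upper quartile of 1000 in every library.

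Promoter windows, from 250 bases before to 50 after the transcript start, were read from RefSeq (GRCm38.p6). Of the 36 members 27 had an entry, 26 by symbol and Mars by a synonym, while Cars, Hars, Lars, Nars, Rars, Vars, Wars, Hars2 and Pars2 had none. A pair of motifs was searched on both strands: CACGTG, the E-box that MYC and its partner bind, and TGATGNAA, the core of the amino acid response element that ATF4 binds. CACGTG stood in 4 of the 13 cytosolic windows (Aars, Farsb, Iars and Tars) and in 1 of the 14 mitochondrial ones (Ears2), against 7.15% of 32851 promoters. TGATGNAA stood in 5 cytosolic windows (Aars, Gars, Iars, Tars and Yars) and in 0 mitochondrial ones, against 3.97% of all promoters. A match describes the letters and is not a binding site. The windows of Aars and Iars are shown because both motifs stand in them and the genes moved in opposite directions with Dox, and those of Mars2 and Yars2 because these mitochondrial enzymes rose most with Dox in VM-3055 and VIM-3039 (in MYC-2983 Tars2 rose more than Yars2). Capitals mark the matches, of which Mars2 and Yars2 have none. All are on the plus strand, at chr8:111033592-111033891 (Aars), chr13:49681880-49682179 (Iars), chr1:55236927-55237226 (Mars2) and chr16:16302715-16303014 (Yars2).
Aars: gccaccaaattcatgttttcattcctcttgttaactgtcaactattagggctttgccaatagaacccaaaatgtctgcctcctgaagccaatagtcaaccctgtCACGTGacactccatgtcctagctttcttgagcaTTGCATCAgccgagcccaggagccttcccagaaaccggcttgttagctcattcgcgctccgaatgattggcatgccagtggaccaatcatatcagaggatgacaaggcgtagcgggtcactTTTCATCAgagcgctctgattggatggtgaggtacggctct
Iars: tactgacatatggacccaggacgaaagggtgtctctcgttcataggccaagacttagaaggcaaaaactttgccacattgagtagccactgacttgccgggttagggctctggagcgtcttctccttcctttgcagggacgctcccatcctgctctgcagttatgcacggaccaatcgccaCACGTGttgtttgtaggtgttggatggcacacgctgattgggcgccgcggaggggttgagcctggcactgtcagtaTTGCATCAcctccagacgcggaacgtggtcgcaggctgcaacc
Mars2: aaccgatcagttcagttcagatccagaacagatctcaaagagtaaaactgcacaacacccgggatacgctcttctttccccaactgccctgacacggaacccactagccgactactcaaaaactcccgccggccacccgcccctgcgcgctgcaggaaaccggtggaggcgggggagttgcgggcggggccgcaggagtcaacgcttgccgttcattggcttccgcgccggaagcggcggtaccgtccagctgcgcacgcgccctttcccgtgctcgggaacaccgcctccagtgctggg
Yars2: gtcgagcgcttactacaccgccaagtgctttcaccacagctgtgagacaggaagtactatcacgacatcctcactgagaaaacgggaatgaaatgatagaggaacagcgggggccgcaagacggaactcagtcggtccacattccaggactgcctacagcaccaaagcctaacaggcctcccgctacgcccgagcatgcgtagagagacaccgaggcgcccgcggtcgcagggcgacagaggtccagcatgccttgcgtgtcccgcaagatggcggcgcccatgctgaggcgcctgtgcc

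To ask how the enzymes change with Dox, which switches on the MYC transgene, cells with and without it were compared line by line. No culture lacking the transgene received Dox here, so effects of the drug and of the transgene cannot be told apart. A gene is said to have risen or fallen where the Benjamini-Hochberg adjusted p of limma, over all genes tested, was under 0.05, and to have passed the 2-fold rule where its log2 change also exceeded 1 in size. All 36 members were tested in every comparison. Most enzymes of both compartments rose, by less than 2-fold. In MYC-2983 cells 29 members rose (15 cytosolic and 14 mitochondrial) and 3 fell, while 31.5% of all genes rose and 44.0% fell. In VM-3055 cells 26 members rose (15 cytosolic and 11 mitochondrial) and 5 fell, against 26.1% and 47.7% of all genes. In VIM-3039 cells 28 members rose (14 cytosolic and 14 mitochondrial) and 5 fell, against 31.1% and 44.2%. The members that passed the 2-fold rule upward were 2 in MYC-2983 (Mars2 and Tars2), 3 in VM-3055 (Vars, Yars2 and Mars2) and 4 in VIM-3039 (Vars, Yars2, Mars2 and Kars), against 4.49%, 5.92% and 7.67% of all genes. After TMM rescaling the counts were 4, 7 and 5, and limma voom gave 4 in MYC-2983. No member passed it downward in any line, while 15%, 18.9% and 16.6% of all genes did.

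In MYC-2983, VM-3055 and VIM-3039 31.5%, 26.1% and 31.1% of all genes rose, and the share that rose in all 3 was not counted. Among the members, 13 cytosolic and 10 mitochondrial enzymes rose in all 3 lines. The cytosolic ones were Dars, Eprs, Farsa, Farsb, Gars, Hars, Iars, Kars, Lars, Mars, Rars, Vars and Yars, and the mitochondrial ones Cars2, Hars2, Iars2, Mars2, Nars2, Sars2, Tars2, Vars2, Wars2 and Yars2. Each of these calls was also made after TMM rescaling and after quantile normalization. TMM rescaling moved the median of all genes from -0.13 to -0.02 in MYC-2983, from -0.26 to -0.05 in VM-3055 and from -0.15 to -0.03 in VIM-3039 on the log2 scale, and in VM-3055 cells it gave 31 members higher and 2 lower. Aars, Nars and Sars fell in all 3 lines on the deposited scale, but only Aars did so under all 3 scalings. After TMM rescaling the changes of Nars and Sars in VM-3055 cells went from -0.12 to 0.10 and from -0.15 to 0.07.

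**Figure D1:**
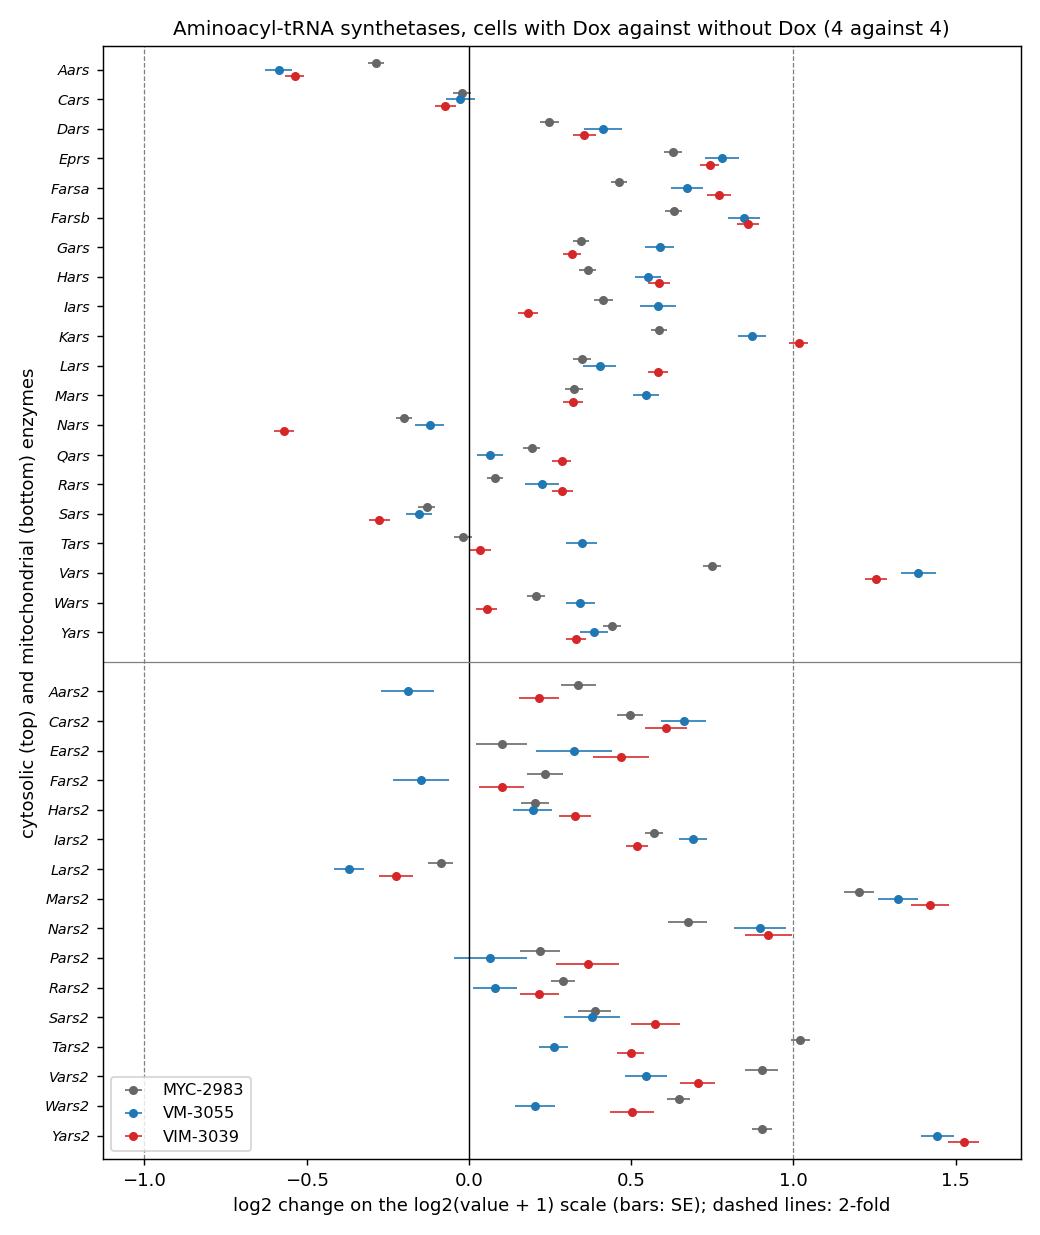
Log2 change with Dox of the 20 cytosolic (top) and 16 mitochondrial (bottom) enzymes in 3 lines (MYC-2983, VM-3055, VIM-3039), with bars for the SE and dashed lines at 2-fold, 4 libraries with Dox against 4 without. Most points lie between 0 and the 2-fold line, Vars, Yars2 and Mars2 reach furthest to the right, and Aars lies left of 0 in each line.

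Yars2, the mitochondrial tyrosyl enzyme (chr16:16303058-16309733 in mm9), held 1587, 1570, 1556 and 1560 units with Dox in MYC-2983 and 833, 797, 854 and 871 without. The VM-3055 libraries read 1461, 1432, 1520 and 1488 with Dox and 538, 575, 550 and 505 without. In VIM-3039 it read 1456, 1353, 1367 and 1345 with Dox and 467, 463, 526 and 462 without. With Dox all 12 libraries lay between 1345 and 1587 units, above every library without it. The log2 changes were 0.90 ± 0.03, 1.44 ± 0.05 and 1.52 ± 0.05 (SE, n = 4 against 4; limma adjusted p 7.68e-15, 3.32e-14 and 1.44e-17). The change exceeded that of MYC-2983 by 0.54 ± 0.06 in VM-3055 and by 0.62 ± 0.06 in VIM-3039 (interaction, limma adjusted p 9.98e-08 and 8.39e-09). Cytosolic Yars changed by 0.44, 0.39 and 0.33.

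Mars2, the mitochondrial methionyl enzyme and a gene of 1 exon (chr1:55294021-55296902), held 498, 496, 528 and 518 units with Dox in MYC-2983 and 226, 227, 213 and 219 without. The VM-3055 values were 663, 628, 617 and 658 with Dox and 268, 268, 243 and 245 without. In VIM-3039 they were 655, 636, 614 and 597 with Dox and 235, 246, 214 and 236 without. Without Dox the 3 lines lay within 213 to 268 units, and the groups did not overlap in any line. Log2 changes were 1.20 ± 0.05, 1.32 ± 0.06 and 1.42 ± 0.06 (SE; limma adjusted p 3.14e-14, 1.47e-12 and 2.03e-15). Cytosolic Mars changed less, by 0.32, 0.55 and 0.32. It overlaps Ddit3 on the other strand, a gene that fell, and whether counting used strand is not given in the sources used here.

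Tars2, the mitochondrial threonyl enzyme (chr3:95543899-95558900), held 2723, 2742, 2919 and 2816 units with Dox in MYC-2983 and 1408, 1333, 1401 and 1373 without. In VM-3055 it read 1033, 1051, 1066 and 1022 with Dox and 832, 892, 875 and 880 without. The VIM-3039 libraries read 902, 871, 864 and 852 with Dox and 624, 596, 617 and 630 without. The groups did not overlap in any line, and MYC-2983 was highest both with and without Dox. Log2 changes were 1.02 ± 0.03, 0.26 ± 0.05 and 0.50 ± 0.04 (SE; limma adjusted p 5.89e-16, 4.46e-05 and 2.86e-10). The change less that of MYC-2983 was -0.76 ± 0.05 for VM-3055 and -0.52 ± 0.04 for VIM-3039 (interaction, limma adjusted p 8.82e-11 and 1.91e-09). Cytosolic Tars changed by -0.02, 0.35 and 0.04, of which the VM-3055 value was called.

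Among cytosolic enzymes Vars (valine; chr17:35137932-35153267) rose most in each line. It held 4031, 4134, 4356 and 4081 units with Dox in MYC-2983 and 2394, 2462, 2510 and 2511 without. In VM-3055 it read 6101, 5840, 5229 and 5266 with Dox and 2190, 2009, 2152 and 2221 without. VIM-3039 gave 5550, 5389, 5193 and 5440 with Dox and 2195, 2178, 2271 and 2392 without. Without Dox all lines lay between 2009 and 2511 units, and with Dox every VM-3055 and VIM-3039 library exceeded every MYC-2983 library. Log2 changes were 0.75 ± 0.03, 1.39 ± 0.05 and 1.26 ± 0.03 (SE; limma adjusted p 3.08e-14, 1.26e-13 and 1.98e-18). The change exceeded that of MYC-2983 by 0.64 ± 0.06 in VM-3055 and by 0.51 ± 0.05 in VIM-3039 (interaction, limma adjusted p 7.5e-08 and 5.86e-09). Mitochondrial Vars2 was largest in MYC-2983, with changes of 0.90, 0.55 and 0.70.

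Kars (chr8:114517340-114535223), which serves both compartments, held 7474, 7584, 7737 and 7810 units with Dox in MYC-2983 and 4987, 5104, 5062 and 5240 without. In VM-3055 it read 5172, 4786, 4951 and 4743 with Dox and 2588, 2703, 2667 and 2767 without. In VIM-3039 it read 6200, 6034, 5968 and 6170 with Dox and 3071, 2903, 3050 and 3024 without. The groups were far apart in each line. Log2 changes were 0.59 ± 0.03, 0.87 ± 0.04 and 1.02 ± 0.03 (SE; limma adjusted p 2.31e-13, 3.03e-12 and 7.35e-18), and the VIM-3039 change ranged from 0.9987 to 1.0263 with 1 library left out, so that its 2-fold call sits at the threshold. Gars (chr6:54987995-55029498), the other shared enzyme, held 7442, 7159, 7104 and 7341 units with Dox in MYC-2983 and 5792, 5621, 5642 and 5789 without. Its VM-3055 values were 5640, 5252, 5691 and 5465 with Dox and 3774, 3792, 3616 and 3481 without. Its VIM-3039 values were 6522, 6589, 6660 and 6792 with Dox and 5441, 5255, 5253 and 5360 without. Gars rose in each line without overlap, by 0.35 ± 0.03, 0.59 ± 0.04 and 0.32 ± 0.03, and its VIM-3039 change less its VM-3055 change was -0.27 ± 0.05 (limma adjusted p 0.000227).

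Eprs (chr1:187186974-187252234) held 9673, 9909, 10082 and 10476 units with Dox in MYC-2983 and 6434, 6401, 6605 and 6510 without. In VM-3055 it read 8815, 8347, 8772 and 8521 with Dox and 4989, 5559, 4567 and 4999 without. In VIM-3039 it read 7725, 7966, 7972 and 8102 with Dox and 4758, 4674, 4848 and 4712 without. It rose in each line without overlap, by 0.63 ± 0.03, 0.78 ± 0.05 and 0.74 ± 0.03, while the mitochondrial enzymes for glutamate and proline changed by 0.10, 0.32 and 0.47 (Ears2) and 0.22, 0.07 and 0.37 (Pars2). Qars (chr9:108410336-108418272) held 2665, 2710, 2791 and 2741 units with Dox in MYC-2983 and 2402, 2296, 2413 and 2425 without. Its VM-3055 values were 2346, 2432, 2341 and 2321 with Dox and 2186, 2285, 2249 and 2302 without, and its VIM-3039 values 2668, 2699, 2764 and 2697 and 2190, 2204, 2209 and 2278. Its changes of 0.19 ± 0.03, 0.07 ± 0.04 and 0.29 ± 0.03 were small, and that of VM-3055 was not called (limma adjusted p 0.15).

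Aars, the alanyl enzyme (chr8:113557044-113581564), went down. It held 7199, 7090, 7206 and 7516 units with Dox in MYC-2983 and 8758, 8842, 8798 and 8969 without. The VM-3055 values were 3410, 3350, 3276 and 3221 with Dox and 4988, 4930, 4813 and 5172 without. The VIM-3039 values were 4736, 4739, 4849 and 4744 with Dox and 6926, 6738, 6892 and 7113 without. Every library with Dox lay below every library of its line without it. Log2 changes were -0.29 ± 0.03, -0.59 ± 0.04 and -0.54 ± 0.03 (SE; limma adjusted p 8.07e-09, 4.36e-10 and 2.24e-13), and -0.17, -0.36 and -0.40 after TMM rescaling. Its window, printed above, holds both motifs, as does that of Iars, the isoleucyl enzyme, which rose by 0.41, 0.58 and 0.18. Nars, the asparaginyl enzyme, fell most in VIM-3039 cells, where it read 6598, 6963, 6880 and 6609 with Dox and 10171, 9948, 9774 and 10214 without (-0.57 ± 0.03).

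**Figure D2:**
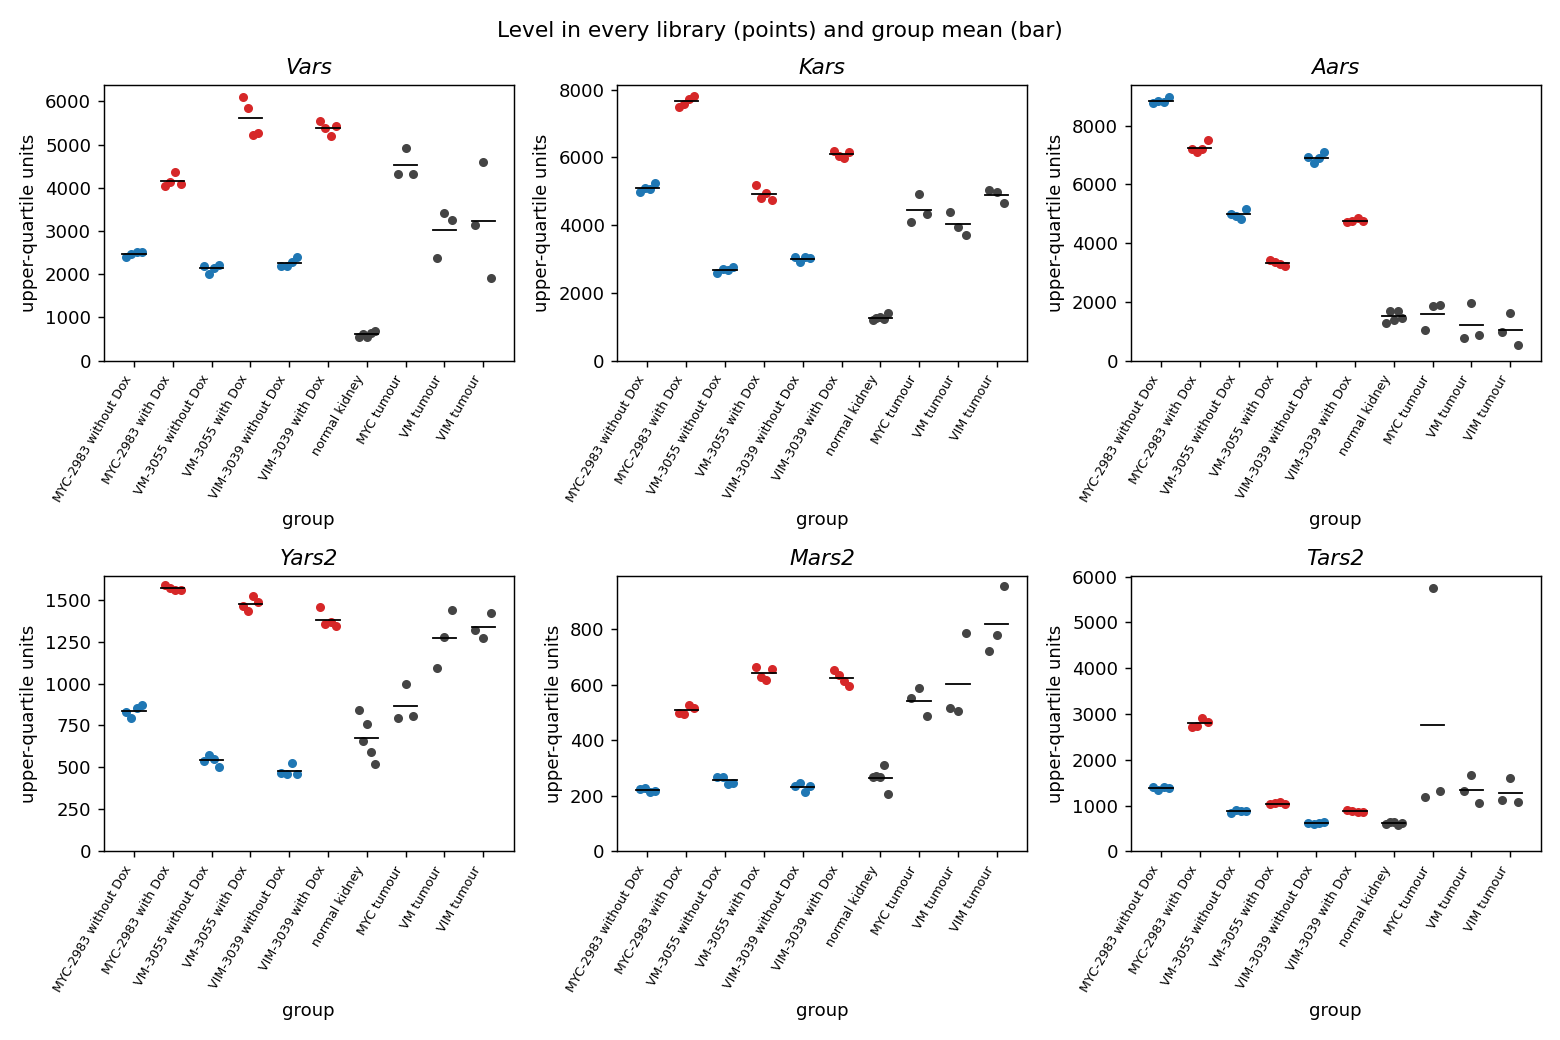
Units in every library (points) with the group mean (bar) for Vars, Kars, Aars, Yars2, Mars2 and Tars2 in the 10 groups, blue for cells without Dox, red for cells with Dox and grey for tissue; axes start at 0. Vars, Kars, Yars2 and Mars2 lie higher with Dox in each line, Aars lies lower, and 1 of the 3 MYC tumours stands at 5764 units of Tars2 while no other library exceeds 2919.

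The lines differed in the size of many of these changes. The interaction of VM-3055 with MYC-2983 (the first change less the second) was positive for 13 members (10 cytosolic and 3 mitochondrial) and negative for 9 (2 and 7), against 17.5% and 28.7% of all genes. That of VIM-3039 with MYC-2983 was positive for 13 members (9 cytosolic and 4 mitochondrial) and negative for 8 (6 and 2), against 23.9% and 23.6% of all genes. That of VIM-3039 with VM-3055 was positive for 6 members (3 cytosolic and 3 mitochondrial) and negative for 7 (6 and 1), against 22.8% and 10.5% of all genes. The splits depend on the scaling: after TMM rescaling they were 23 positive and 7 negative, 15 and 6, and 3 and 11. Between VIM-3039 and VM-3055 the largest cytosolic differences were those of Nars (-0.45 ± 0.05), Iars (-0.40 ± 0.07) and Tars (-0.31 ± 0.06), all negative. Nars read 5582, 5453, 5743 and 5473 with Dox and 6109, 6476, 5722 and 5907 without in VM-3055. Iars read 4057, 3850, 4133 and 3949 against 2664, 3012, 2413 and 2620 in VM-3055 and 4306, 4534, 4581 and 4522 against 4041, 3870, 3862 and 4022 in VIM-3039. Iars thus rose in both lines and by less in VIM-3039. Tars, the cytosolic threonyl enzyme, read 2608, 2599, 2551 and 2586 against 1921, 2236, 2025 and 1960 in VM-3055 and 2919, 3082, 3044 and 3072 against 3051, 2826, 3065 and 2887 in VIM-3039. Among mitochondrial enzymes Aars2 differed most (0.40 ± 0.10), at 310, 294, 244 and 267 with Dox against 305, 295, 341 and 327 without in VM-3055 and 441, 422, 421 and 458 against 365, 354, 360 and 421 in VIM-3039. It fell in VM-3055 and rose in VIM-3039, the former not after TMM rescaling, where its sign changed (0.03). Wars2, for tryptophan, followed (0.30 ± 0.09), a difference that was not called after TMM rescaling. Against MYC-2983, Ears2 rose more in VIM-3039 (0.37 ± 0.11), from 145, 130, 124 and 139 to 187, 189, 187 and 182 units.

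With Dox, VIM-3039 and VM-3055 cells were also compared with each other. No member passed the 2-fold rule, against 9.69% of all genes higher and 9.45% lower in VIM-3039, and limma voom also passed 0. An unadjusted limma p under 0.05 was found for 29 members, and the share of all genes at that level was not counted. By adjusted p alone 19 members were higher (13 cytosolic and 6 mitochondrial) and 9 lower (3 and 6), against 35.1% and 32.4% of all genes. The alanyl enzymes differed most upward, Aars by 0.52 ± 0.03 and Aars2 by 0.65 ± 0.07 (SE; limma adjusted p 9.39e-11 and 4.87e-07).

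As classes, the cytosolic and mitochondrial enzymes both gained in culture. The median log2 change was 0.34 for the cytosolic and 0.44 for the mitochondrial enzymes in MYC-2983, 0.41 and 0.29 in VM-3055, and 0.32 and 0.50 in VIM-3039, beside -0.13, -0.26 and -0.15 over all genes. For the 13 amino acids whose genes in the classes share a root name, the cytosolic change was the larger in 2, 6 and 4 cases. With phenylalanine (Farsa or Farsb with Fars2), glutamate and proline (Eprs with Ears2 and Pars2) added after the values were seen, it was the larger in 5, 9 and 7 of 16. The change of the class mean, cytosolic less mitochondrial, was -0.24, 0.01 and -0.22, with a largest SD within a group of 0.04, 0.04 and 0.03. These values describe the classes and carry no test. The order rests on the measure: with each class summed in units the same differences were 0.03, 0.39 and 0.11.

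The mitochondrial sum is set largely by Lars2, the leucyl enzyme (chr9:123276058-123371782), which made up 50.9% to 72.8% of it in cells and 64.1% to 82.8% in tissue. Whether all reads assigned to Lars2 come from its own transcript was not tested, and sums that hold it carry this limit. Lars2 held 17208, 17291, 17917 and 18074 units with Dox in MYC-2983 and 20600, 18206, 18323 and 17828 without. In VM-3055 it read 12605, 12420, 12858 and 13216 with Dox and 16802, 16733, 15946 and 16475 without, and in VIM-3039 10131, 10555, 10457 and 10575 and 13370, 13420, 10918 and 11272. It fell in VM-3055 (-0.37 ± 0.05, limma adjusted p 9.86e-07) and in VIM-3039 (-0.23 ± 0.05, limma adjusted p 0.000523), the latter not after TMM rescaling. Per kb of transcript its level was 15.8 to 69.6 times the mitochondrial median in the 10 groups, lowest in VIM-3039 cells with Dox and highest in normal kidney. Without Lars2 the differences of class means with Dox were -0.28, -0.04 and -0.27.

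Per kb of transcript the median cytosolic enzyme was more abundant than the median mitochondrial one in every group. The cytosolic median was 5.7 to 8.01 times the mitochondrial median in cells, 3.01 to 3.81 times in tumours and 2.09 times in normal kidney. With Lars2 in the sum the order differed: summed per kb, the mitochondrial enzymes exceeded the cytosolic ones in normal kidney (14156 against 7763 units per kb, 10760 of them Lars2) and narrowly in VIM tumours (17018 against 16910), and in no other group. Nars led the cytosolic class in each line without Dox, at 4323, 2300 and 3810 units per kb, and Kars led in each kind of tumour, at 2030, 1836 and 2232. Dars, the aspartyl enzyme, led in normal kidney at 1018. Pars2 was the lowest mitochondrial enzyme in 7 of the 10 groups.

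**Figure D3:**
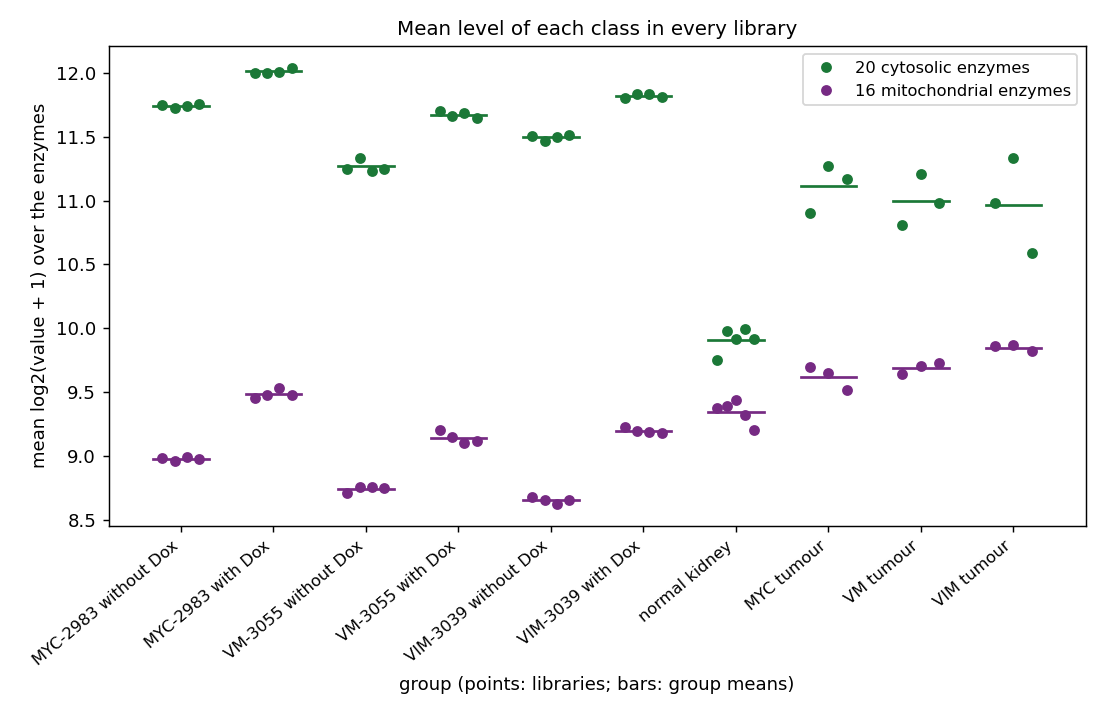
Mean log2(value + 1) of the 20 cytosolic (green) and 16 mitochondrial (purple) enzymes in each of the 38 libraries, with bars for the group means. Both classes are higher with Dox in each line, and in tissue the cytosolic mean goes from 9.91 in normal kidney to between 10.97 and 11.11 in tumours while the mitochondrial mean goes from 9.35 to between 9.62 and 9.85.

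Tumours were then compared with normal kidney, with the 2 libraries of the MYC mouse 2983 averaged first. The 3 comparisons share the 5 kidneys. These were labelled wild type and vehicle treated, while tumour mice received Dox, and VM and VIM mice tamoxifen as well. Effects of these treatments and of the tumour cannot be told apart. In MYC tumours 15 members passed the 2-fold rule upward (11 cytosolic and 4 mitochondrial), in VM tumours 17 (13 and 4) and in VIM tumours 16 (11 and 5), against 18.8%, 17.3% and 18.9% of all genes. Limma voom gave 23 in MYC tumours. No member passed it downward, against 18.6%, 22.5% and 20.7%. By adjusted p alone 23 rose and 2 fell in MYC tumours (27.5% and 24.3% of all genes), 26 and 2 in VM tumours (25.7% and 29.0%), and 24 and 1 in VIM tumours (25.5% and 26.2%). Median log2 changes were 1.06 for the cytosolic and 0.29 for the mitochondrial enzymes in MYC tumours, 1.14 and 0.33 in VM tumours, and 1.02 and 0.63 in VIM tumours, beside 0.07, -0.05 and 0.01 over all genes. The change of the class mean, cytosolic less mitochondrial, was 0.86, 0.75 and 0.56, with a largest SD within a group of 0.31, 0.18 and 0.35. Of the 13 pairs with a shared root name the cytosolic change was the larger in 10, 9 and 8, and of all 16 in 13, 12 and 11.

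The makeup of the tissue moved with these results. All 8 proximal tubule markers fell in each kind of tumour, and their summed level was 246126 to 281444 units in normal kidney against 1788 to 10576 in tumours. The 6 endothelial markers summed to 4604 to 8078 units in kidney and 243 to 2545 in tumours, and 6, 5 and 6 of them fell. The 6 leukocyte markers summed to 3534 to 5817 and 593 to 4802, and 3, 2 and 3 of them rose and 1, 2 and 2 fell in MYC, VM and VIM tumours. The 8 fibroblast markers summed to 1274 to 4132 and 463 to 9543, and 1, 0 and 0 of them rose and 2, 4 and 2 fell. The 6 renal epithelium markers summed to 20365 to 29231 and 9322 to 22767, and 2, 1 and 2 of them rose and 4, 4 and 3 fell. The part of these differences in the enzymes' levels was not tested, and in bulk tissue fewer cells of a type and less RNA per cell cannot be told apart.

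Vars changed most of all members in each kind of tumour. Normal kidneys held 536, 618, 544, 645 and 689 units, MYC tumours 4319, 4914 and 4314, VM tumours 2374, 3410 and 3261 and VIM tumours 3136, 4605 and 1916. Every tumour lay above every kidney. Log2 changes were 2.88 ± 0.14, 2.30 ± 0.16 and 2.32 ± 0.25 (SE; limma adjusted p 5.24e-06, 2.44e-06 and 5.68e-05). Kars held 1201, 1244, 1273, 1212 and 1398 units in kidney, 4088, 4914 and 4321 in MYC, 4390, 3942 and 3720 in VM and 5028, 4970 and 4652 in VIM tumours. It too did not overlap, with changes of 1.78 ± 0.12, 1.66 ± 0.11 and 1.95 ± 0.12 (SE; limma adjusted p 2.27e-05, 2.51e-06 and 3.34e-06).

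Eprs, Gars and Qars also passed the 2-fold rule in each kind of tumour. Eprs held 1334, 1816, 1896, 1938 and 1726 units in kidney, 4633, 9034 and 6088 in MYC, 3819, 6678 and 4053 in VM and 4746, 6555 and 2766 in VIM tumours. Its tumours varied widely but none reached down to the kidneys, and its changes were 1.76 ± 0.22, 1.44 ± 0.20 and 1.35 ± 0.26. Gars measured 1140, 1320, 1276, 1125 and 1269 units in kidney, 2570, 3486 and 3746 in MYC, 2562, 3378 and 3047 in VM and 4772, 5761 and 3271 in VIM tumours (1.32 ± 0.16, 1.28 ± 0.13 and 1.87 ± 0.19). Qars read 1616, 1673, 1815, 1648 and 1738 in kidney, 3671, 3895 and 3232 in MYC, 3820, 3801 and 3139 in VM and 3731, 3559 and 3348 in VIM tumours (1.09 ± 0.11, 1.07 ± 0.12 and 1.06 ± 0.12). Neither gene overlapped between tumours and kidneys. Lars, the cytosolic leucyl enzyme, had the second largest cytosolic change in MYC tumours, from 494, 609, 513, 679 and 677 units in kidney to 1803, 2870 and 2490 (1.90 ± 0.20). Farsa, a subunit of the phenylalanyl enzyme, had it in VM tumours, from 405, 353, 455, 388 and 418 to 1264, 1311 and 1302 (1.68 ± 0.13). Its partner subunit Farsb changed by 0.37, 0.61 and 0.62 in the 3 kinds of tumour against 1.47, 1.68 and 1.74 for Farsa.

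Aars held 1293, 1699, 1381, 1686 and 1465 units in kidney, 1029, 1867 and 1888 in MYC, 772, 1948 and 882 in VM and 976, 1618 and 541 in VIM tumours. Tumours and kidneys overlapped, and changes of -0.11 ± 0.23, -0.44 ± 0.27 and -0.66 ± 0.30 were not called (limma adjusted p 0.73, 0.191 and 0.0908). The other 19 cytosolic enzymes had positive changes in each kind of tumour, and the share of all genes with a positive change was not counted. Of the 19, 17, 18 and 15 were called as higher in MYC, VM and VIM tumours, beside 27.5%, 25.7% and 25.5% of all genes.

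Of the mitochondrial enzymes, Vars2, Mars2, Pars2 and Tars2 passed the 2-fold rule in each kind of tumour, and Yars2 in VIM tumours alone (0.35, 0.92 and 1.01), where the VIM change did not pass a test against that of VM tumours (0.08 ± 0.22, limma adjusted p 0.924). Vars2 held 330, 479, 379, 450 and 479 units in kidney, 1077, 1026 and 874 in MYC, 884, 1154 and 1181 in VM and 1476, 1847 and 639 in VIM tumours (1.27 ± 0.19, 1.34 ± 0.18 and 1.52 ± 0.32). Mars2 read 266, 273, 269, 309 and 205 in kidney, 551, 588 and 487 in MYC, 517, 504 and 787 in VM and 723, 779 and 956 in VIM tumours (1.05 ± 0.19, 1.17 ± 0.21 and 1.63 ± 0.19). Pars2, the prolyl enzyme, read 125, 127, 123, 101 and 123 in kidney, 280, 239 and 236 in MYC, 298, 208 and 287 in VM and 264, 259 and 329 in VIM tumours (1.11 ± 0.22, 1.12 ± 0.22 and 1.24 ± 0.21). In none of these 3 genes did a tumour overlap a kidney. With 1 library left out the change of Pars2 in MYC tumours went down to 0.99 and that of Mars2 in VM tumours to 0.96, under the 2-fold threshold. Downward, Cars2 (cysteine) fell in MYC (-0.80 ± 0.15) and VIM tumours (-0.65 ± 0.17), Fars2 (phenylalanine) in MYC (-0.67 ± 0.21) and VM tumours (-0.57 ± 0.21), and Aars2 in VM tumours (-0.69 ± 0.17).

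**Figure D4:**
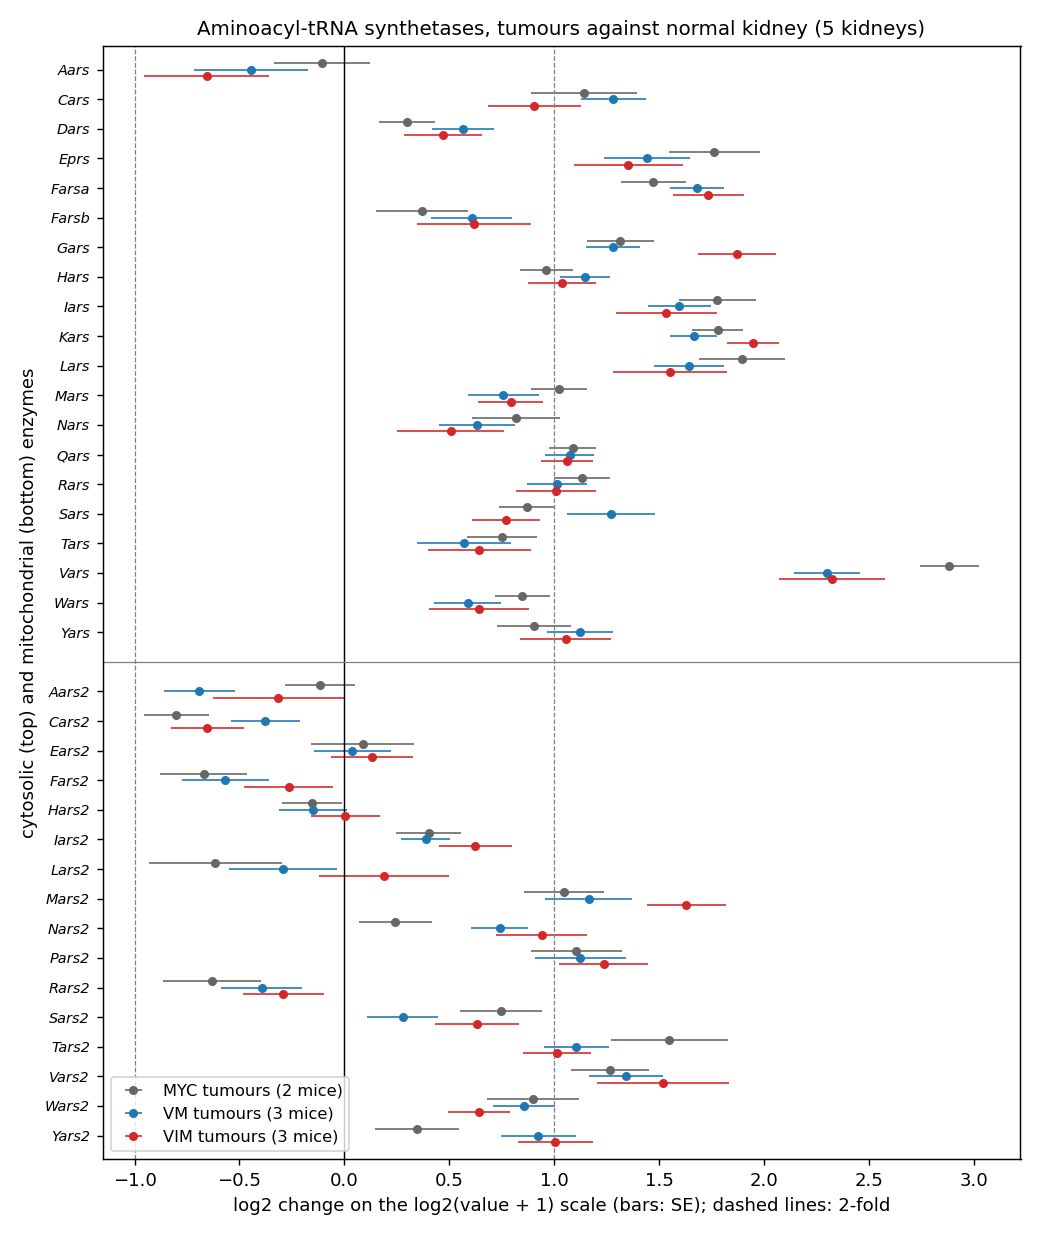
Log2 change against 5 normal kidneys of the 20 cytosolic (top) and 16 mitochondrial (bottom) enzymes in MYC (2 mice), VM (3) and VIM (3) tumours, with bars for the SE and dashed lines at 2-fold. Vars reaches 2.30 to 2.88, Aars is the 1 cytosolic enzyme left of 0, and the mitochondrial enzymes lie on both sides of 0.

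Tars2 held 595, 639, 640, 581 and 625 units in kidney, 1309, 1673 and 1063 in VM, 1130, 1592 and 1068 in VIM and 1179, 5764 and 1322 in MYC tumours. MYC tumour replicate 2 stood far above replicate 3, which is from the same mouse, and above replicate 1. The change in MYC tumours was 1.55 ± 0.28 (limma adjusted p 0.00213), and 1.02 without replicate 2. Wars2, which lies 3.4 Mb away on the same chromosome (chr3:98944991-99043109), read 503, 1278 and 638 in the same 3 libraries, so that replicate 2 was again the highest. The genes around them were therefore read, a choice made after these values were seen. Of the other genes that start within 2 Mb of the start of Tars2, 64 averaged at least 100 units. In replicate 2 their median was 2.06 above the other 2 libraries on the log2 scale and 59 were more than 2-fold higher, while Tars2 itself was 2.21 higher. The median was 0.41 over 545 genes of chromosome 3 and 0.08 over all genes. The 21 neighbours of Wars2 had a median of 1.79. The same reading over the 36 members and 38 libraries (1368 pairs) found 5 with a neighbour median beyond 1 in size: these, the neighbours of Tars2 in MYC tumour replicate 3 (median -1.09), whose low value largely follows from the high replicate 2 it is set against, and a pair for Rars in VIM tumours that rests on 3 neighbours. Within its group, Tars2 and the genes beside it were thus higher together in 1 library, and the cause was not tested. The MYC-2983 line carries the same mouse number as replicates 2 and 3. With Dox its mean Tars2 was 2800 units against 1043 in VM-3055 and 872 in VIM-3039, and its mean Wars2 833.5 against 395.5 and 347.3. Each library was read against its own group, so a feature shared by a whole line could not show, and a link to the tumour was not tested.

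**Figure D5:**
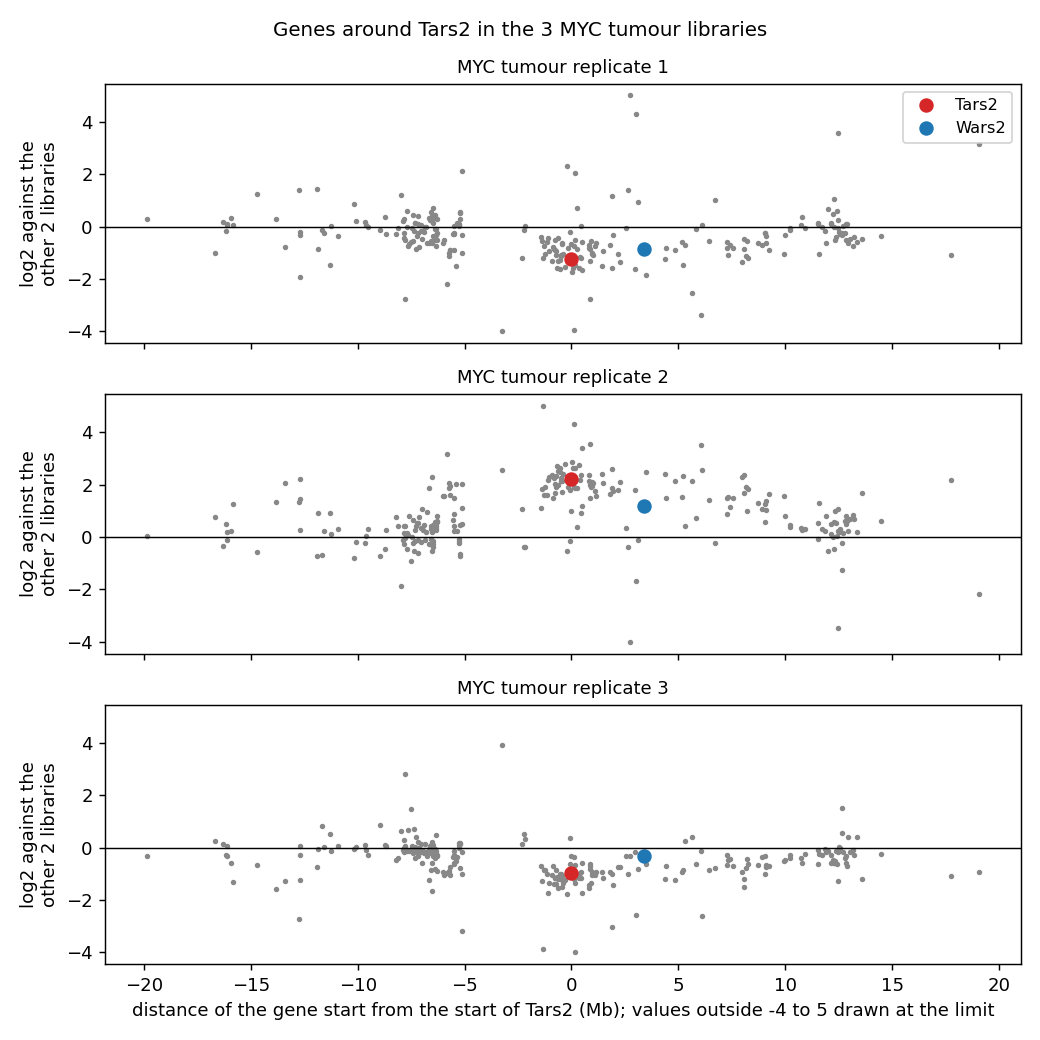
Log2 level of each gene against the other 2 MYC tumour libraries (vertical axis), by distance of its start from that of Tars2 in Mb (horizontal axis), for genes averaging at least 100 units (grey), Tars2 (red) and Wars2 (blue). In MYC tumour replicate 2 the genes within 2 Mb of Tars2 have a median of 2.06. High values reach further on both sides with low ones between. Examples are Ubap2l at -5.74 Mb (2.06), Ilf2 at -5.264 Mb (-0.15) and Hipk1 at 8.0 Mb (2.28). The values are mostly smaller towards both ends of the axis. The 3 values of a gene sum to 0 by construction, so that genes high in 1 library lie low in the others.

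VIM and VM tumours, which differ in their labels by the Ink4a/Arf deletion, were compared last. Their libraries also differed in Vhl without overlap (mean 252 units in VIM and 53.6 in VM tumours), and its part in the comparison was not tested. None of the 36 members was called by limma, none had an unadjusted p under 0.05, and limma voom passed none, against 0.174% of all genes higher and 0.0746% lower in VIM tumours. The SE of a member's change ran from 0.216 to 0.469 on the log2 scale, and the changes from -0.50 (Sars) to 0.59 (Gars, limma adjusted p 0.475). Lars2 changed most among the mitochondrial enzymes, at 52023, 31743 and 62460 units in VIM and 41792, 30938 and 29356 in VM tumours (0.48 ± 0.47, limma adjusted p 0.747). These tumours overlapped.

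Genes that work with the enzymes were read from lists. The 8 enzymes of the multisynthetase complex, which holds part of the cytosolic set together, rose in 8, 7 and 8 cases with Dox in MYC-2983, VM-3055 and VIM-3039, beside 31.5%, 26.1% and 31.1% of all genes. In MYC, VM and VIM tumours 7, 6 and 6 of the 8 passed the 2-fold rule upward, beside 18.8%, 17.3% and 18.9% of all genes. The 3 scaffold proteins of the complex rose in each line, and Eef1e1 gave 0.71, 1.46 and 1.26. Of 5 genes that work beside the mitochondrial enzymes, 5, 4 and 5 rose with Dox, beside 31.5%, 26.1% and 31.1% of all genes. Gatc, a subunit of the amidotransferase that takes the place of a mitochondrial Qars, gave 1.07, 1.02 and 0.92. In MYC, VM and VIM tumours 2, 1 and 2 of the 5 rose and 1, 2 and 1 fell. Among all genes 27.5%, 25.7% and 25.5% rose there and 24.3%, 29.0% and 26.2% fell. Gatc was called as higher there (0.55, 0.77 and 0.98), and Pet112l, another subunit of that amidotransferase named here after its values were seen, as lower (-1.73, -1.17 and -1.24).

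Genes that act on tRNAs before charging were read too. Of 11 genes of tRNA processing and export 11, 10 and 10 rose with Dox, beside 31.5%, 26.1% and 31.1% of all genes, and 1, 4 and 5 passed the 2-fold rule, beside 4.49%, 5.92% and 7.67%. Elac2, which trims the 3′ end of precursor tRNAs, gave 1.19, 1.95 and 1.89, Trnt1, which adds the CCA end, 0.87, 1.32 and 1.41, and Pop1, a subunit of RNase P, 0.62, 1.31 and 1.57. In each kind of tumour 10 of the 11 rose, beside 27.5%, 25.7% and 25.5% of all genes. Of 19 genes for RNA polymerase III and its factors, which transcribe tRNA genes, 16, 12 and 13 rose and 0, 5 and 2 fell with Dox. Among all genes 31.5%, 26.1% and 31.1% rose and 44.0%, 47.7% and 44.2% fell. Of the 19, 1, 3 and 1 passed the 2-fold rule upward, beside 4.49%, 5.92% and 7.67% of all genes. In MYC-2983 and VIM-3039 this was near the share of all genes. Polr3g gave 1.49, 1.18 and 0.99 and Polr3e 0.99, 1.30 and 1.12.

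Of 15 genes of the ATF4 and amino acid response, 5, 8 and 5 rose and 8, 7 and 9 fell with Dox, beside the same shares of all genes (31.5%, 26.1% and 31.1% and 44.0%, 47.7% and 44.2%), with median log2 changes of -0.10, 0.16 and -0.22. In MYC-2983 and VIM-3039 the share that rose was near that of all genes. Ddit3, a stress transcription factor, gave -1.22, -1.92 and -2.12 and Nupr1 -0.94, -1.61 and -1.76, all called as lower. Psat1, an enzyme of serine synthesis, gave 0.68, 1.65 and 1.39. Asns, which makes asparagine and is named after its values were seen, gave 0.44, 0.72 and 0.29, all called as higher. Nars, which loads asparagine, fell on the deposited scale, but in VM-3055 its sign turned after TMM rescaling. In tumours 8, 11 and 8 of the 15 rose, beside 27.5%, 25.7% and 25.5% of all genes, Asns among them (4.32, 4.61 and 4.90).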

How the data were processed

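RNA-seq of 38 mouse libraries was read from 1 table. The deposited values are a signal that the authors made from stranded mRNA libraries sequenced as paired-end reads of 75 bases, aligned to mm9 with MapSplice and assigned to genes with RSEM, and scaled to an upper quartile of 1000 in each library. The submitters' processing notes also name Picard 1.64 and SAMtools. The values are not counts, so depth was estimated from the worth of 1 read, and 3 reads, taken as the floor, came to at most 5.65 units in any library.

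Values were tested with limma 3.58.1 (R 4.3.3; eBayes with trend, two-sided) on log2(value + 1), which understates the change of low genes. Each fit held the groups compared, and genes above 0 in at least 4 libraries of cells or 2 samples of tissue entered it, after averaging libraries of 1 tumour mouse. Adjusted p-values were Benjamini-Hochberg over all genes. Library values are given, per comparison, for the 3 largest changes among members that passed in each class (the largest if none passed) and for Eprs, Kars, Gars and Qars. Library values of Aars, Lars2, Wars2 and Nars outside that rule were added after they were seen. Up to 3 genes of each related list are named by size of change with Dox, and some list genes are not reported here. The members and lists were chosen with earlier results of these data known. Gene positions and transcript lengths come from the NCBIM37 (mm9) annotation. Alternatives were TMM rescaling, quantile normalization, pseudocounts of 0.1 and 10, other filters, limma voom on estimated reads, joint fits, the replicate block and each library left out in turn. The fit was tested on simulated data. Figures used matplotlib 3.10.9.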

Additional observations from a re-analysis of the deposited data

Results flagged for a closer look

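Single libraries stood apart from their group by Dixon's test in 8 of 161 groups of values tested, and chance alone does so in about 1 in 20. They were Aars at 4849 units and Vars2 at 700.4 units in VIM-3039 cells with Dox, Aars2 at 421 and Yars2 at 526.5 in VIM-3039 cells without Dox, Iars at 4281 and Ears2 at 161 in MYC-2983 cells with and without Dox, Pars2 at 101 in 1 normal kidney, and the mean log2 level of the cytosolic class at 11.34 in 1 VM-3055 library without Dox.

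The response to Dox differed between lines by limma's interaction test for named members as follows, on the log2 scale. The VIM-3039 change less the VM-3055 change was called for Gars (-0.27), Iars (-0.40), Kars (0.14), Nars (-0.45), Qars (0.22), Tars (-0.31), Aars2 (0.40), Tars2 (0.24) and Wars2 (0.30). The VM-3055 change less the MYC-2983 change was called for Aars (-0.30), Gars (0.24), Kars (0.29), Qars (-0.13), Tars (0.37), Vars (0.64), Aars2 (-0.53), Tars2 (-0.76) and Yars2 (0.54). The VIM-3039 change less the MYC-2983 change was called for Eprs (0.11), Kars (0.43), Nars (-0.37), Qars (0.0918), Vars (0.51), Ears2 (0.37), Tars2 (-0.52) and Yars2 (0.62). After TMM rescaling or quantile normalization the calls of Kars and Wars2 between VIM-3039 and VM-3055, of Qars between VM-3055 and MYC-2983, and of Eprs and Qars between VIM-3039 and MYC-2983 were lost under at least 1 of the scalings. With 1 line per genotype these differences cannot be told apart from differences between lines.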

How the results depend on the processing

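The count of members past the 2-fold rule with Dox went from 2 to 4 with TMM rescaling and to 4 with limma voom in MYC-2983, and from 3 to 7 with TMM rescaling in VM-3055. In MYC tumours limma voom gave 23 in place of 15. Other alternatives kept these counts within 1.5 times. With 1 library left out the counts ranged over 14 to 19 in MYC, 14 to 18 in VM and 14 to 16 in VIM tumours, 3 to 4 in VIM-3039 cells, and for the interactions 19 to 27 (VM-3055 with MYC-2983), 18 to 22 (VIM-3039 with MYC-2983) and 11 to 15 (VIM-3039 with VM-3055).

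The change of the class mean with Dox, cytosolic less mitochondrial, depended on the measure. In MYC-2983 it was -0.29 with quantile normalization, 0.0292 with summed values and -0.28 without Lars2. In VM-3055 it was -0.16, 0.39 and -0.0432, -0.0281 without Kars and Gars, and -0.0103 to 0.0264 with 1 library left out, negative without replicate 3 with Dox and without replicate 3 without Dox. In VIM-3039 it was -0.31, 0.11 and -0.27, and -0.26 without Kars and Gars. Between VIM-3039 and VM-3055 cells with Dox it was 0.15 with quantile normalization and 0.32 with summed values, and with summed values it was 1.53 in MYC and 1.24 in VM tumours. Without Lars2 and each library left out were added after seeing the data. The sum is weighted to abundant genes by construction, and the cause of the other shifts was not tested.

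Among single members the sign turned for Gars between VIM-3039 and MYC-2983 with TMM rescaling (0.0052), and with 1 library left out for Eprs between VIM-3039 and VM-3055 (-0.0871 to 0.0074), and in VIM against VM tumours for Eprs (-0.3731 to 0.249; 0.17 without VM tumour replicate 2) and Qars (-0.1052 to 0.0363), none of them called. The replicate numbers that VM-3055 and VIM-3039 cells share do not pair them (correlation of same-numbered deviations -0.151 to 0.119). Adding the replicate block gave 3 and 4 members with Dox, 11 for their interaction against 13, and 0 between them with Dox. The 3 or 2 animals per kind of tumour limit what could be shown between tumours.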
